A study of Drosophila melanogaster with 6 samples.

Results

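The proteasome subunit genes are the 32 genes of the authors' deposited result table whose symbol starts with Prosalpha, Prosbeta, Rpt or Rpn, out of 10526 genes tested. They comprise 6 genes of the outer alpha rings and 7 of the inner beta rings of the 20S core particle. For the 19S regulatory particle they comprise the 6 ATPases and 4 other subunits of its base and 8 subunits of its lid. The remaining member is Rpt3R, a paralogue of the ATPase gene Rpt3. RNA was sequenced from Drosophila melanogaster embryos aged 10 to 15 hours, with 3 embryo collections from each of 2 homozygous lines engineered at shaggy (sgg), the fly glycogen synthase kinase 3. Both lines carry an N-terminal DsRed and an internal StrepII-Flag-StrepII tag in sgg. The control line, sggisoD-DS-SFS, is otherwise wild type, and the mutant line, sggisoD-CI-DS-SFS, also has changes at 2 caspase recognition sites. Each line is 1 stock, so the site changes and other differences between the stocks cannot be told apart, and the embryos were collected over a span of hours and pooled whole.

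The proteasome is the protease that degrades proteins tagged with ubiquitin. Its core particle is a barrel in which beta subunits hold the active sites and alpha subunits form the gate, and its regulatory particle binds ubiquitin chains, removes them and unfolds the substrate. In Drosophila embryos the kinase Shaggy marks beta-catenin for destruction by this route when Wingless is absent. Subunit genes are used in every cell and are known to be regulated together. In whole embryos, fewer cells of a type and less RNA per cell cannot be told apart.

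Libraries held between 12646077 and 19454630 counted reads. Normalised levels are given in CPM, counts per unit of library size scaled with TMM factors (trimmed mean of M-values), so that libraries of unequal depth can be compared. Replicate libraries had a Pearson's r of log2 CPM across genes of 0.987 to 0.994 within a line and 0.972 to 0.982 between lines, and the first principal component (60.1% of variance) separated the lines. Tissue markers of the embryo, from the neuronal gene elav to the muscle gene Mhc, were all detected, at a mean of 14.1 to 5496 CPM in the control line. Of these 10 genes, elav was lower (log2 fold change -0.31) and Mhc higher (0.24) in the mutant line at an adjusted p under 0.05 in edgeR's test, and 6 had an unadjusted p under 0.05, against 36.1% of all tested genes. Of 12 early patterning genes tested, 6 were lower and 1 was higher in the mutant line at that threshold, which 8.67% of all tested genes passed as lower and 13.7% as higher. Of 15 genes of late cuticle formation, 4 were lower and 2 higher, the latter near the share of all genes. Their summed level was 203 to 226 CPM in control and 187 to 194 CPM in mutant libraries for the early list, and 19723 to 22031 and 15847 to 18889 CPM for the late list. The late sum rests largely on Osi6 (mean 6940 CPM in control and 3808 CPM in mutant embryos) and Osi7 (4756 and 2704 CPM). Of the late list, 8 of 15 genes had a higher estimate in the mutant line, and the median log2 fold change was 0.11. The part of embryo stage and of tissue composition in the results below was not tested.

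No proteasome subunit gene differed between the lines past the threshold of 0.05 on the adjusted p in edgeR's quasi-likelihood test. Called members numbered 0 of 32, where the same test called 22.3% of all tested genes. At an unadjusted p under 0.05 there were 2 members, Rpn2 and Rpn9, against 36.1% of all tested genes. The DESeq2 Wald test called 0 members and 21.7% of genes, and limma-voom called 0 members and 22.9% of genes. The authors' deposited table also lists 0 members with an adjusted p under 0.05, against 22.6% of its genes, and its log2 fold change had the same direction as here for 32 of 32 members.

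The differences that were measured were small and the errors narrow. Apart from Rpt3R, the members' log2 fold changes of mutant over control ran from -0.17 (Rpn2) to 0.18 (Prosalpha4), with a median of -0.065, beside a median of -0.01 for all tested genes. The median size of a difference was 0.08 on the log2 scale for these 31 genes and 0.19 for all tested genes. A member had between 438 and 2202 reads in a library, and the median standard error of a member's log2 fold change was 0.07, against 0.11 for all tested genes. The median control level was 68.7 CPM for the 31 genes and 26.3 CPM for all tested genes. The sizes of difference are thus not compared at equal level or precision. For 26 of the 31 genes the 95% interval of the difference lay within 20% in either direction. The widest bounds were -20.3%, for Rpn2, and 33.2%, for Prosalpha4, so differences larger than these lie outside the intervals of the 31 genes.

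**Figure D1:**
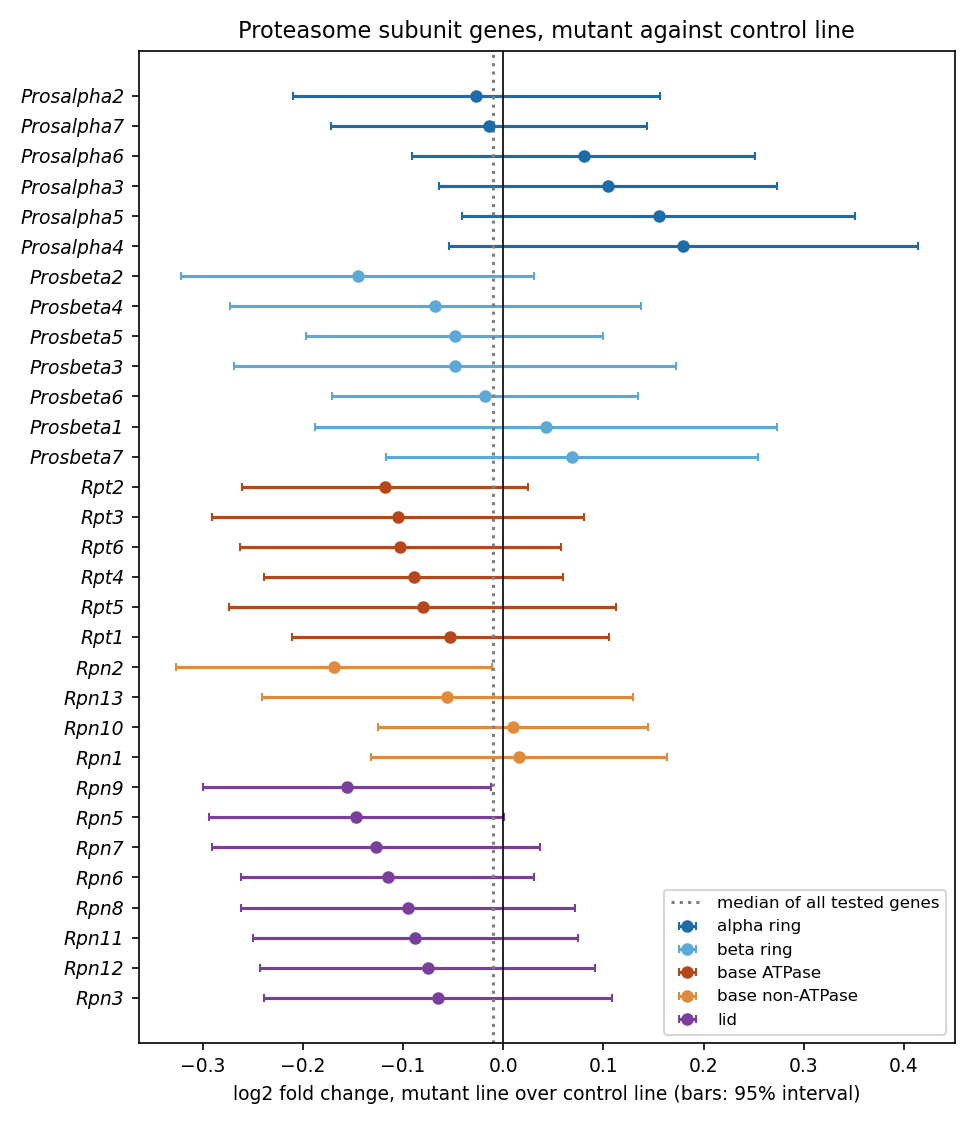
Log2 fold change of mutant over control line for 31 proteasome subunit genes (points) with 95% intervals (bars), coloured and ordered by role, with the median of all tested genes as a dotted line. All 6 base ATPases and all 8 lid genes lie left of 0, the alpha ring genes lie mostly to the right, and the intervals of 29 of 31 genes include 0.

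A larger share of estimates was lower in the mutant line for the regulatory than for the core particle, though none passed the test. The difference between the particles was not tested. Of the 18 genes of the 19S regulatory particle, 16 had a lower estimate in the mutant line, with a median log2 fold change of -0.09, while 51.5% of all tested genes had a lower estimate. Of the 13 genes of the 20S core particle, 7 had a lower and 6 a higher estimate, with a median of -0.014. The 3 mutant values lay all below the 3 control values for 6 of the 18 regulatory particle genes and for 0 of the 13 core genes, against 20.0% of all tested genes. No member had its 3 mutant values all above the control values, against 21.9% of all tested genes. The median of the regulatory particle stayed negative under every scaling, filter, test and left-out library run. That of the core particle turned positive without control library 1 (0.016) and without mutant library 2 (0.03), and was -0.058 without mutant library 3.

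Summed over their genes, regulatory particle transcripts reached 1520, 1446 and 1433 CPM in control libraries 1, 2 and 3 and 1360, 1383 and 1392 CPM in mutant libraries 1, 2 and 3. The 2 lines did not overlap in this sum, whose mean was 1466 ± 47.1 CPM in control and 1379 ± 16.4 CPM in mutant embryos (SD, n = 3 each), 5.96% lower. Core particle transcripts summed to 692, 696 and 690.0 CPM in control libraries 1, 2 and 3 and 729, 659.8 and 710.4 CPM in mutant libraries 1, 2 and 3. The control sums were close together and the mutant sums lay on both sides of them. The ratio of core to regulatory particle sums was 0.473 ± 0.015 in the control and 0.508 ± 0.0298 in the mutant line (SD, n = 3 each). Its ranges overlapped, since mutant library 2 (0.477) lay below control libraries 2 and 3 (0.481 and 0.482). These sums are over the chosen genes and carry no test, and sums of other complexes are given further below.

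**Figure D2:**
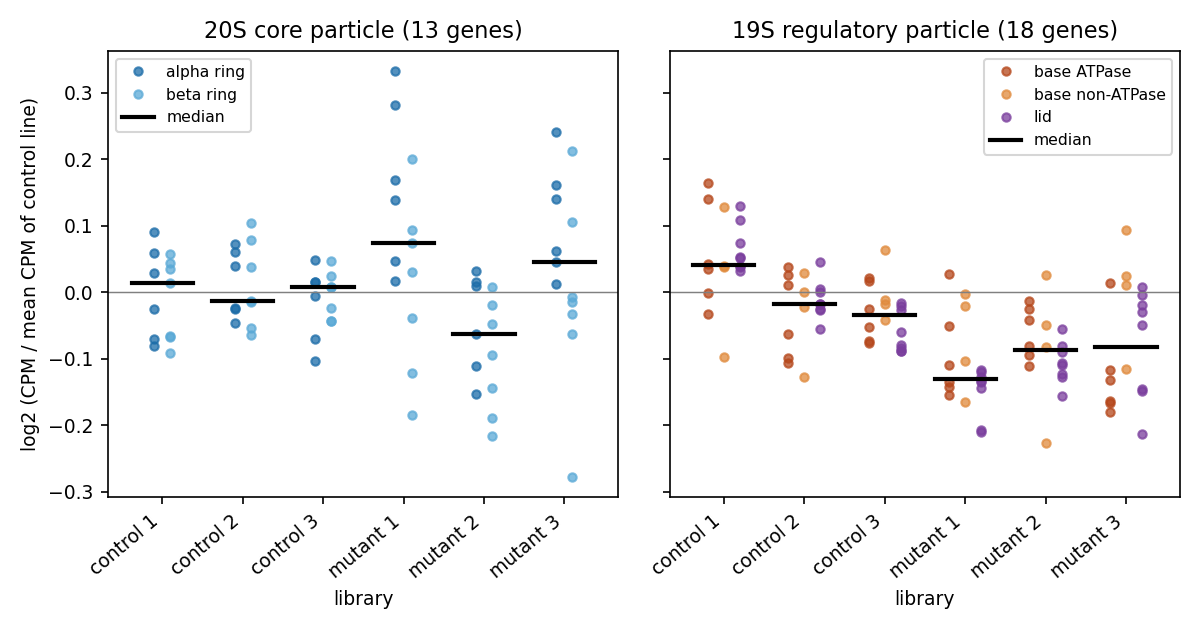
Log2 of each gene's CPM over its control mean in the 6 libraries, for the core particle (left) and the regulatory particle (right), with points coloured by role and bars at the median over genes. Regulatory particle medians are 0.041, -0.017 and -0.034 in the control libraries and -0.13, -0.086 and -0.082 in the mutant libraries, while core particle medians are 0.075, -0.063 and 0.046 in the mutant libraries.

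Within a line the members also moved by library. Among the control libraries, library 1 held the highest value for 13 of the 18 regulatory particle genes and library 3 the lowest for 10. Over all tested genes the median log2 of CPM over the control mean was 0.011, 0.0019 and -0.022 in control libraries 1, 2 and 3. The regulatory particle medians, 0.041, -0.017 and -0.034, fell in the same order. Among the mutant libraries, library 1 held the highest value for 7 of the 13 core genes and library 2 the lowest for 9. The coefficient of variation of a member over 3 collections had a median of 3.93% in the control and 5.28% in the mutant line, with single genes between 0.772% and 13.8%.

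The alpha ring genes encode the subunits that close and open the entrance of the core. Of the 6 tested, 4 had a higher estimate in the mutant line, with a median log2 fold change of 0.09. The median was 0.06 without control library 3, 0.047 without mutant library 1 and 0.13 without mutant library 2, where 6 of 6 had a higher estimate and 2 an unadjusted p under 0.05. The share of all tested genes at that unadjusted p is not given here for this run, which called 0 members and 1753 of 10699 tested genes. At the upper end, Prosalpha4 (FBgn0004066, X, 16276270 to 16277587, forward strand, positions here being those of Ensembl release 115 for BDGP6) had 44.7, 44.7 and 46.97 CPM in control libraries 1, 2 and 3 and at 57.2, 43.5 and 53.7 CPM in mutant libraries 1, 2 and 3. Mutant libraries 1 and 3 lay above all controls and mutant library 2 below them. Its log2 fold change of 0.18 (standard error 0.10, 95% interval -0.054 to 0.41) had an edgeR adjusted p of 0.245. The estimate was 0.083 without mutant library 1 and 0.29 without mutant library 2 (edgeR adjusted p 0.0515). Prosalpha5 followed the same order of mutant libraries, with 50.0, 41.6 and 46.0 CPM, and had a log2 fold change of 0.16 and an edgeR adjusted p of 0.232. At the lower end, Prosalpha2 (FBgn0086134, 3R, 12431321 to 12432556, forward strand) measured 53.4 ± 3.09 CPM in control and 52.4 ± 3.79 CPM in mutant embryos (SD, n = 3 each). The lines overlapped, and its log2 fold change of -0.027 (interval -0.21 to 0.16) changed sign without control library 1 or mutant library 2. The remaining alpha genes, Prosalpha7, Prosalpha6 and Prosalpha3, had log2 fold changes of -0.014, 0.08 and 0.11, and the values of the lines overlapped for each.

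Prosalpha1, the remaining alpha subunit gene, is not among the tested genes. It is listed at 0 reads in every library, as is its paralogue Prosalpha1R, which lies beside it on the same strand of 2R. Prosalpha1 spans 7827303 to 7828678 and Prosalpha1R 7830413 to 7831771. The other core subunits of this ring were well counted, and the level of Prosalpha1 RNA is not known from these counts.

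Among the beta ring genes, Prosbeta1, Prosbeta2 and Prosbeta5 encode the catalytic subunits, which cut after acidic, basic and hydrophobic residues respectively. The caspase-like subunit gene Prosbeta1 (FBgn0010590, 2R, 16013805 to 16014787, reverse strand) measured 49.6, 48.0 and 47.6 CPM in control libraries 1, 2 and 3 and at 51.0, 42.5 and 56.1 CPM in mutant libraries 1, 2 and 3. The mutant values straddled the controls, and the log2 fold change was 0.04 (standard error 0.10, interval -0.19 to 0.27). The trypsin-like subunit gene Prosbeta2 (FBgn0023174, 3L, 14999951 to 15001319, forward strand) measured 72.0, 67.3 and 70.3 CPM in the control and 64.2, 67.6 and 57.6 CPM in the mutant libraries. Only mutant library 2 reached into the control range. Its log2 fold change of -0.15 (standard error 0.08, interval -0.32 to 0.03) was the lowest of the core genes, with an edgeR adjusted p of 0.214. The chymotrypsin-like subunit gene Prosbeta5 (FBgn0029134, 2R, 10819978 to 10821178, forward strand) measured 69.5, 65.8 and 71.1 CPM in the control and 67.0, 64.4 and 68.1 CPM in the mutant libraries. The lines overlapped, and the log2 fold change was -0.048 (standard error 0.06, interval -0.20 to 0.10).

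The other beta ring genes encode structural subunits. Prosbeta7 (FBgn0250746, 3R, 5357012 to 5358364, reverse strand) had the highest estimate of the ring, 0.07 on the log2 scale (interval -0.12 to 0.25), at 71.6 ± 4.24 CPM in control and 75.2 ± 6.18 CPM in mutant embryos (SD, n = 3 each). Mutant library 1, at 82.3 CPM, was above the controls and the other mutant libraries were within them, and without that library the estimate was -0.016. Prosbeta3, Prosbeta4 and Prosbeta6 had log2 fold changes of -0.048, -0.07 and -0.018, each smaller than its standard error.

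The 6 ATPases of the base form the ring that unfolds substrates and drives them into the core. All 6 had a lower estimate in the mutant line, between -0.12 (Rpt2) and -0.05 (Rpt1) on the log2 scale, with a median of -0.10. Rpt2 (FBgn0015282, 3R, 23929873 to 23931558, reverse strand) measured 90.3, 83.9 and 88.8 CPM in control libraries 1, 2 and 3 and at 79.4, 82.9 and 80.0 CPM in mutant libraries 1, 2 and 3. The mutant values all lay below the control values, as they did for Rpt4 but not for the other ATPases. Its log2 fold change of -0.12 (standard error 0.06, interval -0.26 to 0.02) had an edgeR adjusted p of 0.213. Rpt1 (FBgn0028687, 2R, 7652440 to 7653954, reverse strand) measured 98.4, 101 and 102 CPM in the control and 103, 99.0 and 89.8 CPM in the mutant libraries. Only mutant library 3 lay below the controls. Rpt3 had its highest value, 109.7 CPM, in control library 1, and 91.0 to 93.1 CPM in the other control libraries, beside 90.3 to 91.7 CPM in the mutant libraries. The log2 fold changes of Rpt3, Rpt4, Rpt5 and Rpt6 lay between -0.11 and -0.08, with edgeR adjusted p from 0.333 to 0.539.

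Of the base subunits without ATPase activity, Rpn1 and Rpn2 are the large scaffolds, and Rpn10 and Rpn13 are ubiquitin receptors. Rpn2 (FBgn0028692, 3R, 29153524 to 29157255, forward strand) measured 87.7, 95.6 and 97.9 CPM in control libraries 1, 2 and 3 and at 83.6, 80.1 and 86.6 CPM in mutant libraries 1, 2 and 3. The mutant values all lay below the controls, by a small margin to control library 1. The log2 fold change of -0.17 (standard error 0.07, interval -0.33 to -0.011) had an unadjusted p of 0.0389 and an edgeR adjusted p of 0.117. The other scaffold gene, Rpn1 (FBgn0028695, 3L, 19915051 to 19918160, forward strand), was at 92.2, 88.5 and 88.7 CPM in the control and 89.7, 86.7 and 95.8 CPM in the mutant libraries. The lines overlapped, and its log2 fold change of 0.016 (interval -0.13 to 0.16) turned negative when upper-quartile scaling or the library size alone was used. The difference between Rpn1 and Rpn2 in response was not tested. The median of these 4 genes was -0.023. It was 0.018, -0.071 and -0.042 without control library 1, 2 or 3, and -0.071 without mutant library 3. The receptor genes Rpn10 and Rpn13 had log2 fold changes of 0.01 and -0.056, each smaller than its standard error.

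The lid genes picked by symbol encode the deubiquitinating enzyme Rpn11, its partner Rpn8 and 6 scaffold subunits, and need not be the whole lid. Sem1, which the choice by symbol does not pick, is counted below among the partners. It had a log2 fold change of -0.012 (standard error 0.10), and the lines overlapped. All 8 of these genes had a lower estimate in the mutant line, with a median of -0.11 on the log2 scale. Rpn9 (FBgn0028691, 3R, 23731375 to 23733462, reverse strand) measured 71.2, 68.8 and 68.9 CPM in control libraries 1, 2 and 3 and at 63.5, 64.0 and 60.0 CPM in mutant libraries 1, 2 and 3. The lines did not overlap, as also for Rpn5 and Rpn7. The log2 fold change of -0.16 (standard error 0.06, interval -0.30 to -0.012) had an unadjusted p of 0.0369 and an edgeR adjusted p of 0.112, the lowest adjusted p of any member. Rpn5, a further scaffold subunit gene, was at 85.5, 81.0 and 80.9 CPM in the control and 71.4, 77.5 and 74.5 CPM in the mutant libraries. Its log2 fold change was -0.15, with an edgeR adjusted p of 0.14. At the other end, Rpn3 (FBgn0261396, 2L, 19051790 to 19053681, forward strand) had a log2 fold change of -0.07 (interval -0.24 to 0.11), which without control library 1 was 5.2e-05. The enzyme gene Rpn11 was at 58.7 ± 3.04 CPM in control and 55.2 ± 2.33 CPM in mutant embryos (SD, n = 3 each), with overlapping values and a log2 fold change of -0.09. The other lid genes, Rpn6, Rpn7, Rpn8 and Rpn12, had log2 fold changes from -0.13 (Rpn7) to -0.08 (Rpn12) and edgeR adjusted p from 0.233 to 0.502.

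Levels were next compared between genes, per kilobase of merged exons as annotated there. In the control line the 31 genes lay between 27.5 CPM per kb (Rpn2) and 69.1 CPM per kb (Rpn10), a 2.52-fold range, with a median of 53.9. In the mutant line the range was 24.5 to 69.6 CPM per kb, again from Rpn2 to Rpn10, with a median of 53.2. The large scaffold genes Rpn2 and Rpn1 (29.5 CPM per kb in the control line) stood lowest in both lines. The median level per kb by role in the control line was 60.5 for the ATPases, 59.0 for the beta ring, 47.4 for the alpha ring, 45.4 for the lid and 35.2 for the other base subunits. Among the catalytic genes, the control levels were 67.6 ± 2.31 CPM per kb for Prosbeta2, 60.4 ± 2.38 for Prosbeta5 and 56.8 ± 1.24 for Prosbeta1 (SD, n = 3 each). Merged exons include parts that single transcripts lack, so a level per kb depends on the annotation.

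**Figure D3:**
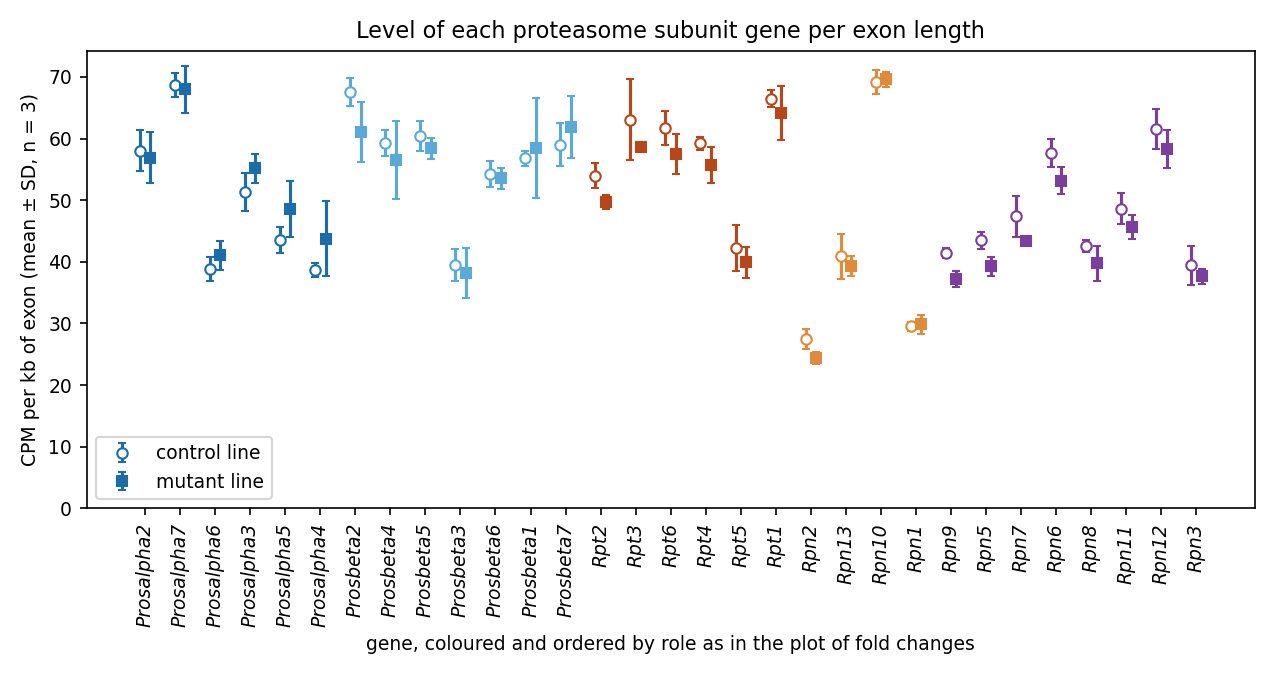
Mean CPM per kb of exon for each of 31 proteasome subunit genes in the control line (open circles) and the mutant line (filled squares), with bars for the SD over 3 collections, coloured and ordered by role. The levels of the 2 lines follow each other gene by gene, from Rpn2 and Rpn1 at the bottom to Rpn10 and Prosalpha7 at the top.

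Drosophila has further copies of many subunit genes, several of them known from the testis. Rpt3R (FBgn0037742, 3R, 9754735 to 9756510, reverse strand) was the one copy that passed the filter on low counts, with a count of 11, 14 and 17 in the 3 control libraries and of 9, 10 and 15 in the 3 mutant libraries. The lines overlapped, and the log2 fold change of -0.15 had a wide interval, from -0.94 to 0.64. Its level per kb was 0.573 CPM in the control line, beside 63.04 CPM for Rpt3. Of 15 other paralogues in the count table, 4 were at 0 reads in every library, among them Prosalpha1R described above, and the highest had 14 reads in a library, which was Rpn13R. No difference was tested in these 15 copies, and a count of 0 does not show that such a copy was not expressed. Of 14 testis marker genes, 8 were at 11 reads or fewer in every library. The 6 tested had a mean of 0.81 to 211 CPM in the control line, the highest being bol with 2690 to 4317 reads in a library. They gave 0 calls, where 22.3% of all tested genes were called.

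Genes that work with the proteasome were examined by the same test. Of 12 tested partners and regulators, 0 passed the threshold (22.3% of all tested genes), 2 had an unadjusted p under 0.05 (36.1% of all tested genes), and the median log2 fold change was -0.0047. This list runs from the assembly factor gene Pomp (0.27, standard error 0.14, adjusted p 0.196 in edgeR's test) to rngo (-0.24, standard error 0.10, adjusted p 0.117), which encodes a ubiquitin receptor. The deubiquitinase gene Usp14 was at 60.1 ± 1.72 CPM in control and 52.0 ± 3.33 CPM in mutant embryos (SD, n = 3 each), with all mutant values below the controls and an edgeR adjusted p of 0.0721. The transcription factor genes cnc, the fly member of the Nrf family that acts on proteasome genes, and maf-S, its partner, had log2 fold changes of 0.10 and 0.08, with adjusted p of 0.273 and 0.629 in edgeR's test. A further list held 6 genes linked to the SCF ligase, namely slmb, Cul1, SkpA, Roc1a, ago and Nedd8. This ligase attaches ubiquitin to beta-catenin, but not every listed gene need serve that step. In this list 0 genes passed the threshold and 1, Nedd8, had an unadjusted p under 0.05 (0.0485 in edgeR's test). The Nedd8 estimate was higher in the mutant line, by 0.34 on the log2 scale. Its values overlapped, at 12.3 to 15.0 CPM in control and 14.6 to 20.4 CPM in mutant libraries.

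The list of ubiquitin genes and of the segregase TER94 with its cofactors held 2 calls among 10 tested genes, both lower in the mutant line, where 8.67% of all tested genes were called lower. The polyubiquitin gene Ubi-p5E (FBgn0086558, X, 6276876 to 6279647, reverse strand) measured 201, 189 and 182 CPM in control libraries 1, 2 and 3 and at 111, 142 and 119 CPM in mutant libraries 1, 2 and 3. It fell in the mutant line by 0.62 on the log2 scale (standard error 0.09), with an edgeR adjusted p of 0.00358, and all mutant values lay below the controls. Its repeats resemble those of Ubi-p63E, and the counting of reads shared between such genes is not given in the sources used here. Ubi-p63E itself had a log2 fold change of -0.13, with an edgeR adjusted p of 0.194. The member Rpt4 lies in the same part of X, at 6289470 to 6291245, and had a log2 fold change of -0.09 with an edgeR adjusted p of 0.366. The TER94 cofactor gene p47 (FBgn0033179, 2R, 7465018 to 7466759, reverse strand) was also called, at 45.7 ± 1.44 CPM in control and 37.3 ± 2.08 CPM in mutant embryos (SD, n = 3 each), with all mutant values below the controls. Its log2 fold change of -0.29 (standard error 0.07) had an edgeR adjusted p of 0.0223. With the replicate number as a block the call of p47 was lost (adjusted p 0.0521 in edgeR's test), as it was without control library 2 (0.0632), mutant library 1 (0.0585) or mutant library 2 (0.0636).

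Other large complexes were set beside the proteasome because the lid shares its subunit plan with the COP9 signalosome and the initiation factor eIF3, and because the chaperonin CCT is a further complex used in every cell. None of their genes passed the threshold in edgeR's test, with 0 calls among 7, 13 and 8 tested genes, and 1, 2 and 0 genes at an unadjusted p under 0.05, where all tested genes had shares of 22.3% and 36.1%. Median log2 fold changes were -0.07 for COP9, -0.06 for eIF3 and -0.03 for CCT, beside -0.09 for the regulatory particle and -0.014 for the core. A lower estimate in the mutant line was found for 5 of 7, 12 of 13 and 6 of 8 genes, beside 16 of 18 and 7 of 13. The summed level of eIF3, like that of the regulatory particle, did not overlap between the lines. It was 3187 to 3290 CPM in control and 3082 to 3117 CPM in mutant libraries. The sums of COP9 and of CCT overlapped. A difference between the proteasome and these complexes was not tested.

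**Figure D4:**
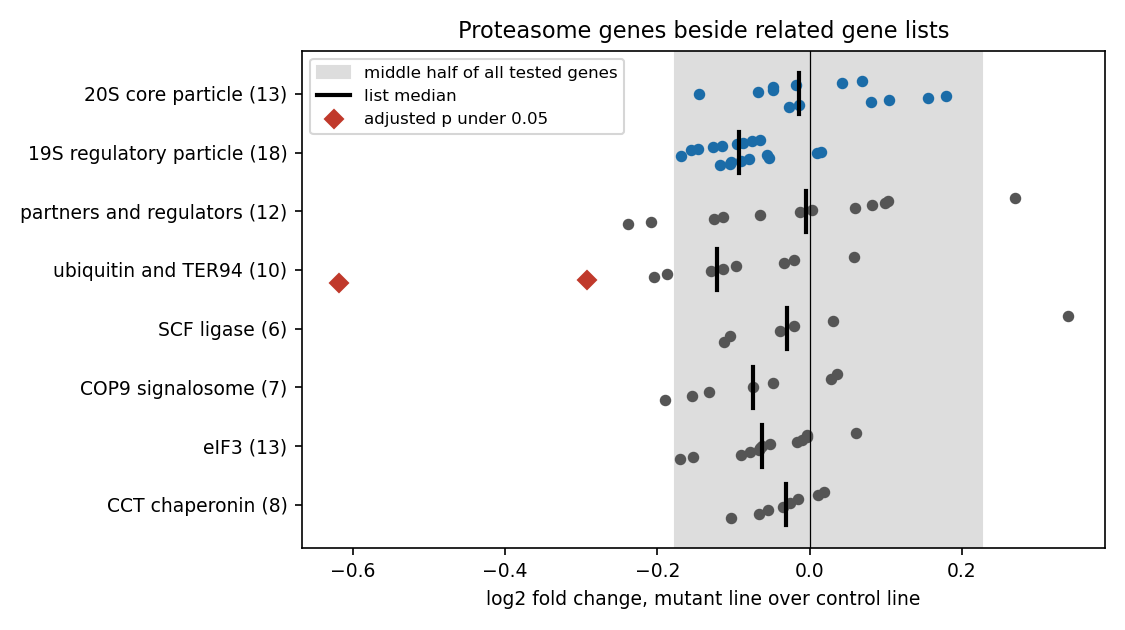
Log2 fold change of mutant over control line for each gene (points) of the core and regulatory particles and of 6 related lists, with list medians as bars and the range between the quartiles of all tested genes (-0.18 to 0.23) shaded. Both particles lie inside the shaded range, and the red diamonds, genes with an adjusted p under 0.05, are Ubi-p5E and p47.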

How the data were processed

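The deposited files are a table of raw counts for 17493 genes and the authors' table of 10526 genes, which repeats those counts (checked equal) and adds log2 CPM, a log2 fold change, its p-value and adjusted p-value, and score columns not used here. Per the submitters' processing notes, TopHat2 2.1.1, Bowtie2 2.3.4.0, edgeR 3.14.0 and limma 3.28.21 were used. The genome build, annotation and counting settings are not given in the sources used here. Per the labels' protocols, libraries were poly(A)-selected from 100 ng of RNA with a directional kit and 12 PCR cycles, so reads include PCR copies and intervals cover the spread between these collections.

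Libraries were grouped by title into control and mutant lines (n = 3 each). Genes passing filterByExpr (minimum count 10, minimum total 15) were scaled by TMM and tested with edgeR 4.0.16 (R 4.3.3, glmQLFTest, two-sided, Benjamini-Hochberg over all 10526 genes, threshold 0.05). The standard error is the log2 fold change over the square root of F. Alternatives used other scalings, filters and thresholds, DESeq2 1.42.0, limma 3.58.1 (voom), a replicate block and leaving out each library. The code was tested on simulated counts. Text names members past the threshold, the catalytic genes and each role's extremes; other members, Prosalpha1 and Rpn13R were named after values were seen. The members and lists were chosen with earlier results of these data known. Sequences were not used here.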

Additional observations from a re-analysis of the deposited data

How the results depend on the processing

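The number of called members was 0 in each direction under every alternative run but 1. With library size alone 1 member was called lower, Rpn9 (log2 fold change -0.20, adjusted p 0.049975, just under the threshold, in edgeR's test). In that run 2540 of 10526 tested genes were called in either direction. An unadjusted p under 0.05 was found for 7 members, for which the share of all tested genes is not given here. The regulatory particle median was -0.13, while the median of all genes was -0.051. With the replicate number as a block 0 members and 1994 of 10526 tested genes were called, and the smallest adjusted p of a member was 0.153 in edgeR's test. Over all tested genes, deviations from the line means had correlations of -0.014, -0.016 and 0.015 between libraries of equal number. A batch that acts on some genes only could be missed by these values, so a shared collection is not excluded.

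Leaving out each of the 6 libraries in turn, 0 members were called, beside 1295 to 2146 of all tested genes. The smallest adjusted p of a member ran from 0.0515 to 0.162 in edgeR's test. The regulatory particle median ran from -0.13 (without mutant library 3) to -0.072 (without control library 1). Signs changed for members close to 0. Among members followed gene by gene, the log2 fold change with a library left out ran from -0.080 to 0.030 for Prosalpha2. It ran from -0.063 to 0.14 for Prosbeta1, from -0.016 to 0.10 for Prosbeta7, from -0.038 to 0.046 for Rpn1 and from -0.11 to 5.2e-05 for Rpn3. For Rpn1 it was -0.0056 with upper-quartile scaling and -0.025 with library size alone. This list is not complete. Without mutant library 2, 0 of 6 alpha ring genes had a lower estimate, so Prosalpha7 also changed sign. Of the 4 base subunits without ATPase activity, 4 were lower without control library 2, so Rpn10 changed sign. Without control library 1 only 1 of these was lower, so Rpn13 changed sign. The cause was not tested. The stricter filter (1 CPM in 3 libraries) removes Rpt3R.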
